A study of Mus musculus with 6 samples.

Results

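The genes described here are the FGF receptors and FGF ligands of PA6 cells, the receptors FGFR1, FGFR2, FGFR3 and FGFR4, the receptor-like protein FGFRL1, and the ligands FGF2, FGF7, FGF10, FGF18 and FGF21. They were chosen by gene symbol, with no threshold on a value, and every probe carrying one of these 10 symbols was taken, 18 probes of the 45281 on the array and 10 of its 30854 gene names. PA6 is a mouse stromal line used as a feeder layer under differentiating embryonic stem cells. Here PA6 monolayers were grown alone, with no stem cells, in serum-free medium for 3 h. The medium held no growth factor (-GFs), 20 ng/ml of recombinant FGF2, or 10 ng/ml of recombinant BMP4. The BMP4 dose is that of the labels, and the methods give a lower one for co-cultures. Each group had 2 replicates, each replicate was a set of 3 wells that received the 3 media, and RNA was measured with 1 Illumina MouseWG-6 v2.0 array per well. The comparisons ask how the stromal cells themselves answer either factor. PA6 is a single cell line and each group was seen on 2 arrays only, so the exact permutation test of a group against another cannot go below p = 0.333 (two-sided), and the tests given are those of a model fitted across all genes.

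FGFs are secreted proteins that bind receptor tyrosine kinases on the cell surface together with heparan sulphate. The bound receptors form dimers, phosphorylate each other and the adaptor FRS2, and switch on the RAS-ERK cascade, which in turn induces inhibitors of the same cascade. Alternative splicing of FGFR1, FGFR2 and FGFR3 yields IIIb and IIIc forms, which differ in the ligands they bind. FGF7 and FGF10 are made by mesenchymal cells and act mainly on the IIIb form of FGFR2 on neighbouring epithelium. FGF2 and FGF18 act mainly on IIIc forms, and FGF21 is a circulating factor that needs a co-receptor. An array probe does not tell the splice forms apart unless it lies in the differing exon, and the probes were not placed on exons here.

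Of the 10 genes, 7 had a probe detected in both arrays of at least 1 group (detection p under 0.05) and could be tested, and 3 could not (FGFR3, FGFR4 and FGF21). Of the 18 probes, 9 passed this filter, 7 were detected on all 6 arrays and 6 on no array. FGFR4, a receptor best known from liver and muscle, was detected on no array. FGF21, a metabolic hormone of the liver, was likewise detected on no array. FGFR3, a receptor known for its role in cartilage, had 2 probes with 1 detected array each, a -GFs array for one probe and an FGF2 array for the other. A probe below background gives only an upper bound, so these 3 genes have no direction here. A further 17 genes named as FGFs were on the array and none could be tested, 13 of them being detected on no array. The cells carried the markers of a stromal line, since all 10 stromal markers, among them the collagens COL1A1 and COL3A1 and the receptor PDGFRA, were detected on every array. Between 3 and 5 markers in each list for endothelial, embryonic stem, epithelial, neural and haematopoietic cells were detected on no array, but TEK, POU5F1, CDH1 and CD34 were detected on all 6. The summed linear level of the stromal markers ran from 130956 to 133505 in -GFs medium, from 102987 to 112134 with FGF2 and from 121622 to 139900 with BMP4. Their part in the results below was not tested. In RNA from a whole well, fewer cells that make a transcript and less of it in each cell cannot be told apart. All levels below are log2 intensities after spline normalization, and since probes differ in brightness no level of a gene is set against that of another gene.

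The promoters of the 3 genes whose adjusted p passed the threshold with FGF2 are shown because FGF18 and FGF2 moved up together and FGFR2 moved down. Each is the stretch of 250 bases before the RefSeq start of the mouse gene in GRCm38.p6, read on the strand of the gene, and capitals mark matches to the motifs searched. Fgf18 lies on the minus strand (chr11:33147401-33147650), Fgf2 on the plus strand (chr3:37348403-37348652) and Fgfr2 on the minus strand (chr7:130266809-130267058).
Fgf18: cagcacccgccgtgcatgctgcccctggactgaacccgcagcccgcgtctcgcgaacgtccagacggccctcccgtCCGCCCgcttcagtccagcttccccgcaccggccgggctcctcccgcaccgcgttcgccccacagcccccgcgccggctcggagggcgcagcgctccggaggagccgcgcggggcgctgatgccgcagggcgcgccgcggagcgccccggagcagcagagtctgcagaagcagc
Fgf2: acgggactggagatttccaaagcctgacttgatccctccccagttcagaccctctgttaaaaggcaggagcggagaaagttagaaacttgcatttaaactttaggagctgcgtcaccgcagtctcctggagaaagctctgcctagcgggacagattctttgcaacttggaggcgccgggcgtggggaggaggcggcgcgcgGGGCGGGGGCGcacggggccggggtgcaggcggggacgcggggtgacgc
Fgfr2: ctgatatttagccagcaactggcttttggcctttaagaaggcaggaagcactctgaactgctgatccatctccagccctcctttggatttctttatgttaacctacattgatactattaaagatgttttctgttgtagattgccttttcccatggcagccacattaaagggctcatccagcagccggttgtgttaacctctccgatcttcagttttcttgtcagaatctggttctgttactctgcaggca
The 7 motifs, searched on both strands, were the TATA box TATAAA, the GC box GGGCGG, the AP-1 site TGANTCA, the CRE site TGACGTCA, the EGR site GCGNGGGCG, the ETS site CCGGAAG and the CArG box, of which the GC box and the EGR site can overlap. The Fgf18 stretch held 1 GC box, on the other strand, which 32.7% of 32851 such mouse stretches hold. The Fgf2 stretch held 1 GC box and, overlapping it, 1 EGR site, which 4.70% of all stretches hold. An EGR site also lay in a stretch of Fgfr3, which could not be tested, and in that of Fgfrl1, which was not called. The Fgfr2 stretch held none of the 7 motifs. Guanine and cytosine made up 77.2% of the Fgf18 stretch, 62.4% of that of Fgf2 and 44.0% of that of Fgfr2, beside a median of 52.4% over all stretches. RefSeq stretches were at hand for 9 of the 10 genes, all but Fgfr1. A match is a description of letters only.

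FGFR2 was the receptor that fell with FGF2. On its brightest probe the log2 intensity was 12.485 and 12.176 in -GFs medium, 10.965 and 11.107 with FGF2, and 12.667 and 12.735 with BMP4. The groups did not overlap, FGF2 being lowest and BMP4 highest. Before normalization the intensities were 6413 and 4520.9 in -GFs medium, 2006.7 and 2111.9 with FGF2, and 5696.2 and 7325.2 with BMP4, so the drop with FGF2 was already there in the deposited values, while those of -GFs medium and BMP4 overlapped. FGFR2 fell 2.45-fold with FGF2, or by 1.29 on the log2 scale (fitted value -1.29, standard error 0.17, 95% interval -1.69 to -0.90, limma adjusted p = 0.0114, n = 2 per group). This change was larger in size than that of 98.2% of the genes tested. A gene was called when its adjusted p was under 0.1 and its log2 fold change beyond 1 either way, which 1.25% of the 11872 genes tested met with a fall and 2.28% with a rise. FGFR2 fell in both replicates, by 1.52 in replicate 1 and by 1.07 in replicate 2 on the log2 scale. A second, dimmer FGFR2 probe read 8.543 and 8.628 in -GFs medium, 7.606 and 7.885 with FGF2, and 8.811 and 8.658 with BMP4. It gave the same order of the group means, with a log2 fold change of -0.84 for FGF2 (adjusted p = 0.0358 over all probes), which is under the threshold on the fold. The remaining 2 FGFR2 probes were detected on no array. The call rested on both FGF2 arrays, since FGFR2 missed the threshold when either was left out (-1.22 without replicate 1 and -1.37 without replicate 2, both with an adjusted p of 0.109).

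**Figure D1:**
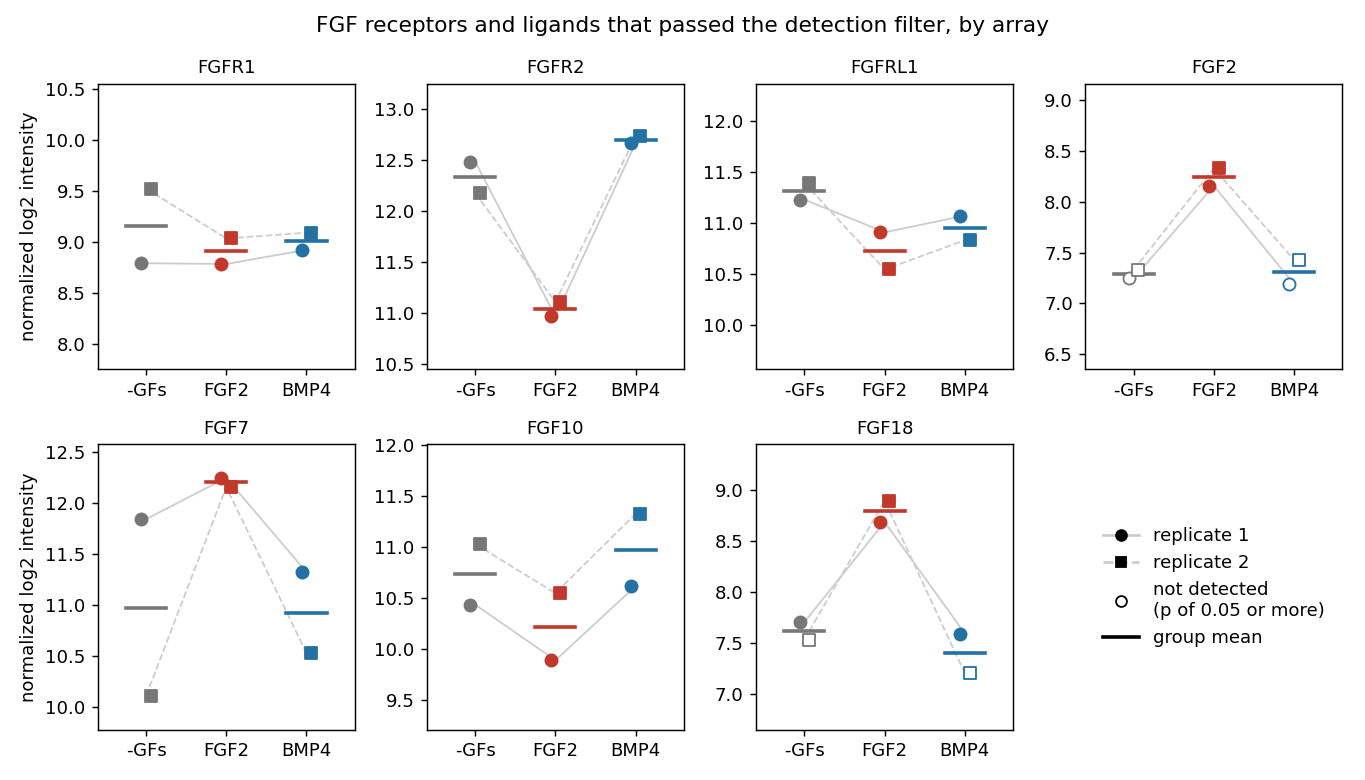
Normalized log2 intensity of the 7 genes that passed the detection filter on each of the 6 arrays (circles replicate 1, squares replicate 2, open symbols not detected, bars group means of n = 2); each panel spans the same log2 range around its own centre. FGFR2 sits lowest, and FGF18 and FGF2 highest, on the 2 FGF2 arrays, whereas FGF7 runs from 10.108 to 11.845 within the -GFs group alone.

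FGFR1, a main receptor for FGF2 on mesenchymal cells, was not called. Its probe read 8.794 and 9.527 in -GFs medium, 8.786 and 9.037 with FGF2, and 8.926 and 9.093 with BMP4. All 3 groups overlapped, and the -GFs arrays lay furthest apart. The log2 fold change with FGF2 was -0.25 (standard error 0.25, 95% interval -0.85 to 0.36, adjusted p = 0.615). This interval leaves out the change on the brightest FGFR2 probe (-1.29) but admits that on its dimmer probe (-0.84). A second FGFR1 probe was detected on no array.

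FGFRL1 binds FGFs but lacks the kinase domain. It read 11.228 and 11.390 in -GFs medium, 10.907 and 10.542 with FGF2, and 11.070 and 10.829 with BMP4. Both treated groups lay below the -GFs arrays, and the FGF2 and BMP4 arrays overlapped. The log2 fold change with FGF2 was -0.58 (standard error 0.19, 95% interval -1.03 to -0.14) and missed the threshold (adjusted p = 0.120). A block for the replicate number brought the 95% interval to -0.90 to -0.27 and the adjusted p to 0.00710, and the change was still too small to be called.

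FGF18 was the ligand called higher with FGF2. It is a ligand of bone, cartilage and lung development. Its probe read 7.703 and 7.532 in -GFs medium, 8.686 and 8.894 with FGF2, and 7.591 and 7.201 with BMP4. Both FGF2 arrays stood above the other 4, and the probe was detected on both FGF2 arrays but on 1 of 2 arrays in each of the other groups. FGF18 rose 2.25-fold with FGF2, or 1.17 on the log2 scale (standard error 0.19, 95% interval 0.73 to 1.62, adjusted p = 0.0205), by 0.98 in replicate 1 and 1.36 in replicate 2. Since the -GFs level lies at the edge of detection, the size of the rise depends on how background is treated, and it was 2.22 on the log2 scale with neqc background correction. FGF18 lost its call without FGF2 replicate 1 (1.28, adjusted p = 0.118) or without FGF2 replicate 2 (1.07, adjusted p = 0.178). Its second probe was detected on no array.

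The cells' own FGF2 message came next. The recombinant protein adds no RNA to the wells, so the probe reads the gene's transcript in PA6 cells. It read 7.246 and 7.329 in -GFs medium, 8.155 and 8.327 with FGF2, and 7.188 and 7.428 with BMP4. The probe was detected on the 2 FGF2 arrays only, which stood above the other 4. Measured against the lowest level the arrays could detect, FGF2 was at least 1.57-fold higher with FGF2 than in -GFs medium, a bound that was not tested. The fitted log2 fold change of 0.95 (standard error 0.16, limma adjusted p = 0.0232) rests on -GFs values below background. It missed the threshold on the fold, and with neqc it was 2.11 and was called (adjusted p = 0.0210). The gene had passed the detection filter only through the FGF2 group, in which it was high. Neither the -GFs nor the BMP4 level can be ordered, both being below background.

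FGF7, the keratinocyte growth factor, showed the widest spread of the 7 genes. It read 11.845 and 10.108 in -GFs medium, 12.250 and 12.160 with FGF2, and 11.325 and 10.531 with BMP4. The FGF2 arrays were the highest of all 6 and lay close together, while the -GFs arrays differed by 1.74 on the log2 scale. The intensities before normalization showed the same gap, 4120.8 and 1036.8 in -GFs medium beside 4767.2 and 4534.4 with FGF2. The log2 fold change with FGF2 was 1.23, but its 95% interval ran from -0.05 to 2.50 and it was not called (standard error 0.54, adjusted p = 0.228). Replicate 1 gave a difference of 0.41 and replicate 2 of 2.05. Blocked by replicate number, FGF7 was called (95% interval 0.73 to 1.73, adjusted p = 8.16e-04). The value hung on the -GFs arrays, being 2.10 without -GFs replicate 1 (adjusted p = 0.0515, called) and 0.36 without -GFs replicate 2 (adjusted p = 0.622).

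FGF10, the other mesenchymal ligand of the IIIb form of FGFR2, was not called either. Its brightest probe read 10.431 and 11.026 in -GFs medium, 9.885 and 10.544 with FGF2, and 10.614 and 11.323 with BMP4. Replicate 2 lay above replicate 1 in every group, by 0.60, 0.66 and 0.71 on the log2 scale in that order. Within each replicate the FGF2 array was the lowest, by 0.55 and 0.48 against -GFs medium, whereas the groups themselves overlapped. The log2 fold change with FGF2 was -0.51 (95% interval -1.32 to 0.29, adjusted p = 0.412). A block for the replicate number brought the interval to -0.80 to -0.23 and the adjusted p to 0.00860, with a change too small to be called. A dimmer FGF10 probe gave -0.39, and the other was detected on 2 arrays only. The opposite signs of FGF7 and FGF10 are given as values, since neither was called in the main fit. With the replicate block FGF7 was called and FGF10 was not.

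**Figure D2:**
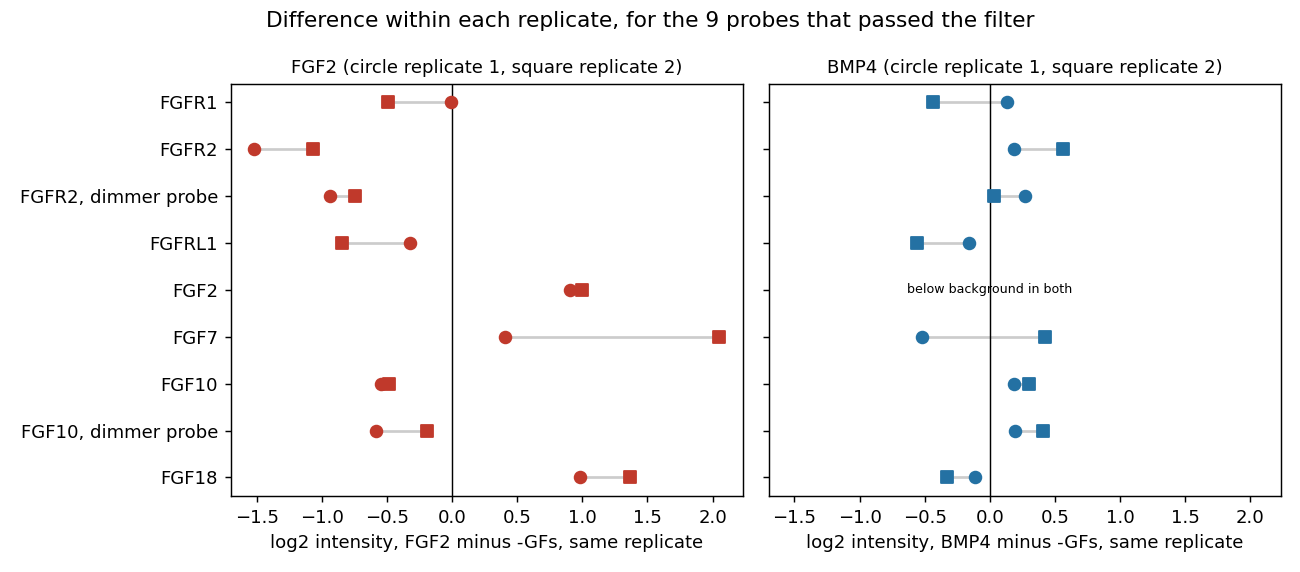
Log2 intensity with FGF2 (left) or BMP4 (right) minus that of the -GFs array of the same replicate, for the 9 probes that passed the filter (circles replicate 1, squares replicate 2). FGFR2, FGF18 and FGF2 changed alike in both replicates with FGF2, FGF7 differed between replicates (0.41 and 2.05), and the values drawn for FGF2 and FGF18 start from a level at or near background.

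BMP4 left these genes without a call. None of the 7 was called against -GFs medium by limma, beside 0.00842% of all genes (1 of 11872), and at an unadjusted p under 0.05 there were 0 of the 7 and 215 of all genes. The methods' t-test called 0 of the 7 as well, beside 0.0674% of all genes when unadjusted. When adjusted it called no gene at all in any comparison, so its count cannot set these genes apart from the rest. FGFR2 was nearest, both BMP4 arrays lying above both -GFs arrays, with a log2 fold change of 0.37 (95% interval -0.02 to 0.76, adjusted p = 0.9995). FGFRL1 gave -0.36 (95% interval -0.80 to 0.08) and FGF18 -0.22 (95% interval -0.67 to 0.22). FGF10 gave 0.24 (95% interval -0.56 to 1.04) and FGFR1 -0.15 (95% interval -0.76 to 0.45). FGF7 gave -0.05, with an interval from -1.32 to 1.23 that admits changes over 2-fold either way. The BMP4 intervals for FGFR2, FGFRL1 and FGFR1 leave out a log2 change of 1. FGF18 was detected on 1 of 2 arrays in either group, so its interval bounds no fall, and the value was -0.48 with neqc.

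The difference between the factors was tested directly, on the same FGF2 arrays as before. FGFR2 was 3.17-fold lower with FGF2 than with BMP4 (log2 fold change -1.67, standard error 0.17, 95% interval -2.06 to -1.27, adjusted p = 0.00636). FGF18 was 2.63-fold higher with FGF2 than with BMP4 (log2 fold change 1.39, standard error 0.19, adjusted p = 0.0141), a size that was 2.70 on the log2 scale with neqc, the BMP4 level being at the edge of detection. These were the 2 of 7 genes called, beside 1.04% of all genes with a fall and 2.03% with a rise. FGF18 had passed the detection filter only through the FGF2 group, in which it was high, so the count is no support for a response of the set. With detection required on all 6 arrays it was 1 (FGFR2). FGFR2 was called here whichever FGF2 array was left out, which FGF18 was not (adjusted p = 0.106 without replicate 1 and 0.155 without replicate 2). FGF2 was at least 1.58-fold higher, again a bound that was not tested. Its fitted log2 fold change of 0.93 (adjusted p = 0.0285) was short of a call. With neqc FGF2 was called (2.05 on the log2 scale, adjusted p = 0.0193), and without BMP4 replicate 2 its value was 1.05. FGF7 was higher by 0.93 in replicate 1 and by 1.63 in replicate 2, with a log2 fold change of 1.28 (95% interval 0.00 to 2.55, adjusted p = 0.234) that was called only with the replicate block (adjusted p = 6.57e-04) or where the -GFs arrays did not fully enter the estimate of the spread (adjusted p = 0.0593 on the 4 arrays compared). FGF10 was lower by 0.75 (adjusted p = 0.262), FGFRL1 by 0.23 and FGFR1 by 0.10.

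**Figure D3:**
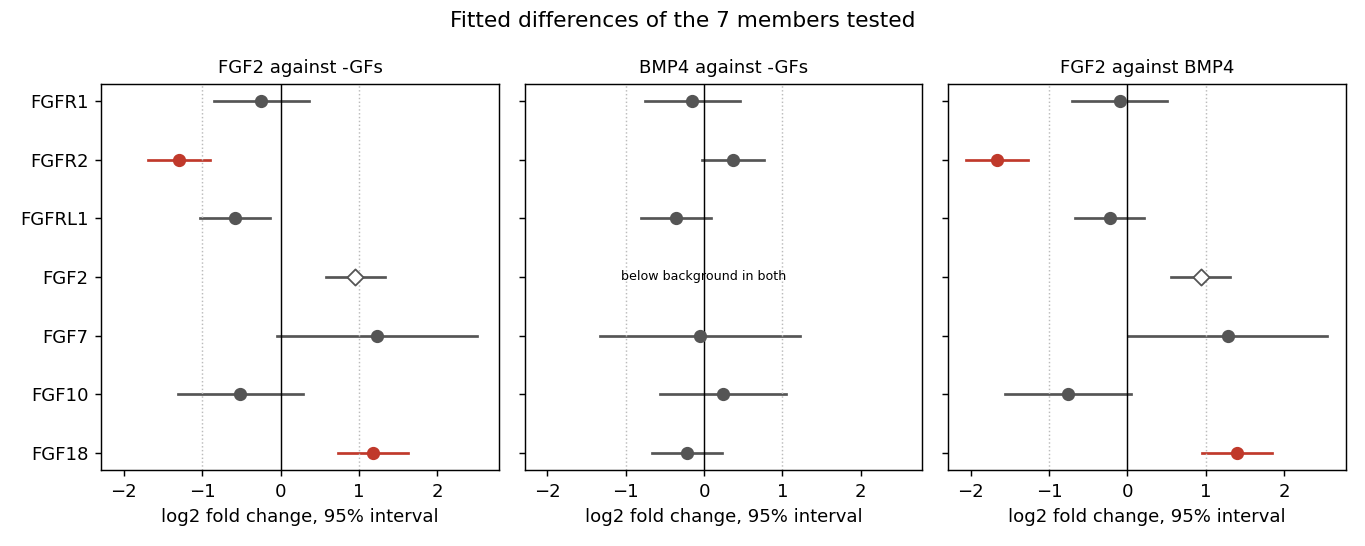
Log2 fold change with its 95% interval (limma, all 6 arrays, n = 2 per group) of the 7 genes tested in each comparison; red marks a call, dotted lines the threshold of 1, and open diamonds the values of FGF2, which was below background in the group compared against. FGFR2 falls and FGF18 rises in both comparisons that hold the FGF2 group, and no gene is called for BMP4.

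On the adjusted p alone, 3 of the 7 genes passed for FGF2 against -GFs medium (FGFR2, FGF18 and FGF2), where 11.8% of all genes did. FGF18 and FGF2 had passed the detection filter only through the FGF2 group, in which they were high, so the count is no support for a response of the set, and with detection required on all 6 arrays it was 1. The median of all genes was -0.02 for this comparison, and -0.10 when arrays were only scaled to a common median, which left 2 of the 7 called and split all calls into 208 up and 209 down in place of 271 and 148.

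The rest of the pathway was described with lists of named genes. Among co-receptors and proteins that bind FGFs, 18 were on the array and 11 could be tested, of which 1 was called higher and none lower with FGF2, beside 2.28% higher and 1.25% lower over all genes, with a median log2 fold change of -0.02. That gene was SDC1, a heparan sulphate proteoglycan of the cell surface. It read 9.741 and 9.748 in -GFs medium and 10.892 and 10.639 with FGF2 (log2 fold change 1.02, standard error 0.21, adjusted p = 0.0387), and its dimmer probe gave 0.77. The call was at the threshold and was lost when each -GFs and FGF2 array in turn was left out (0.89 to 1.15) and with median scaling (0.93). Of the 11 enzymes tested that build or trim heparan sulphate, 2 were called higher (2.28% of all genes) and none lower, with a median of 0.16. HS6ST1, which adds sulphate at the 6-O position, read 8.304 and 8.424 in -GFs medium and 10.303 and 10.934 with FGF2. Its log2 fold change was 2.25 (standard error 0.26, adjusted p = 0.00893), and it was also called whichever array was left out. NDST1, which starts the sulphation of the chain, rose by 1.09 (adjusted p = 0.0422) on its brightest probe, beside values of 1.01 and 0.64 on the others, and was not called without -GFs replicate 1 (0.88) or without FGF2 replicate 1 (adjusted p = 0.109) or 2 (0.83).

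Below the receptors, 24 of 29 adaptors and kinases could be tested and 1 was called, lower with FGF2, with a median of 0.16. A single call among 24 genes is near what all genes gave (1.25% lower and 2.28% higher) and is not a result about the list. It was GAB1, a docking protein that carries the signal towards PI3 kinase and SHP2. GAB1 read 10.917 and 11.285 in -GFs medium, 9.941 and 10.136 with FGF2, and 11.063 and 11.104 with BMP4 (log2 fold change with FGF2 -1.06, standard error 0.18, adjusted p = 0.0231). The call did not hold without -GFs replicate 2 (-0.88) or without FGF2 replicate 1 (-0.97) or 2 (-1.16, adjusted p = 0.152). FRS2, the adaptor bound directly by the receptors, was among the 21 that did not pass the adjusted p (adjusted p = 0.445). Among feedback inhibitors and target genes of the cascade, 5 of 9 tested genes were called higher (2.28% of all genes) and none lower. On the adjusted p alone 7 passed (11.8% of all genes), and the median was 1.65. ETV4, which is in both counts, and SPRY4, which is in that of the adjusted p, had passed the detection filter only through the FGF2 group. They were high in that group, so the counts are no support for a response of the list. DUSP6, a phosphatase that inactivates ERK, rose from 8.466 and 8.739 to 12.109 and 12.188 (log2 fold change 3.55, standard error 0.25, adjusted p = 0.00305). DUSP4, a nuclear phosphatase of the same family, rose by 3.19 on the probe that stands for it, beside values of 2.45 and 0.97 on the others. The ETS factors ETV4 and ETV5, both at the edge of detection in -GFs medium, rose by 1.65 and 1.98 (2.80 and 3.22 with neqc), while SPRED1, an inhibitor of RAS signalling, went from 9.610 and 9.100 to 11.499 and 11.207. DUSP4 and ETV4 were not called without FGF2 replicate 2 (adjusted p = 0.110 and 0.158).

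Receptor tyrosine kinases of other families were listed beside FGFR2. Of 48 on the array 23 could be tested, and none was called with FGF2 by limma, beside 1.25% lower and 2.28% higher over all genes. The lack of a call among 23 genes is near those shares and is not a result about the list. On the adjusted p alone 2 passed with a rise and 1 with a fall, a share near the 11.8% of all genes. Their log2 fold changes ran from -0.86 to 0.81 with a median of -0.03. The value of FGFR2 lay outside that range on its brightest probe (-1.29) and inside it on its dimmer probe (-0.84). EPHB4, a receptor for ephrin-B2, marked the lower end (-0.86, adjusted p = 0.0322). With neqc EPHB6 was called lower, and without -GFs replicate 2 FLT1 was called higher. With BMP4 no gene of these lists was called.

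**Figure D4:**
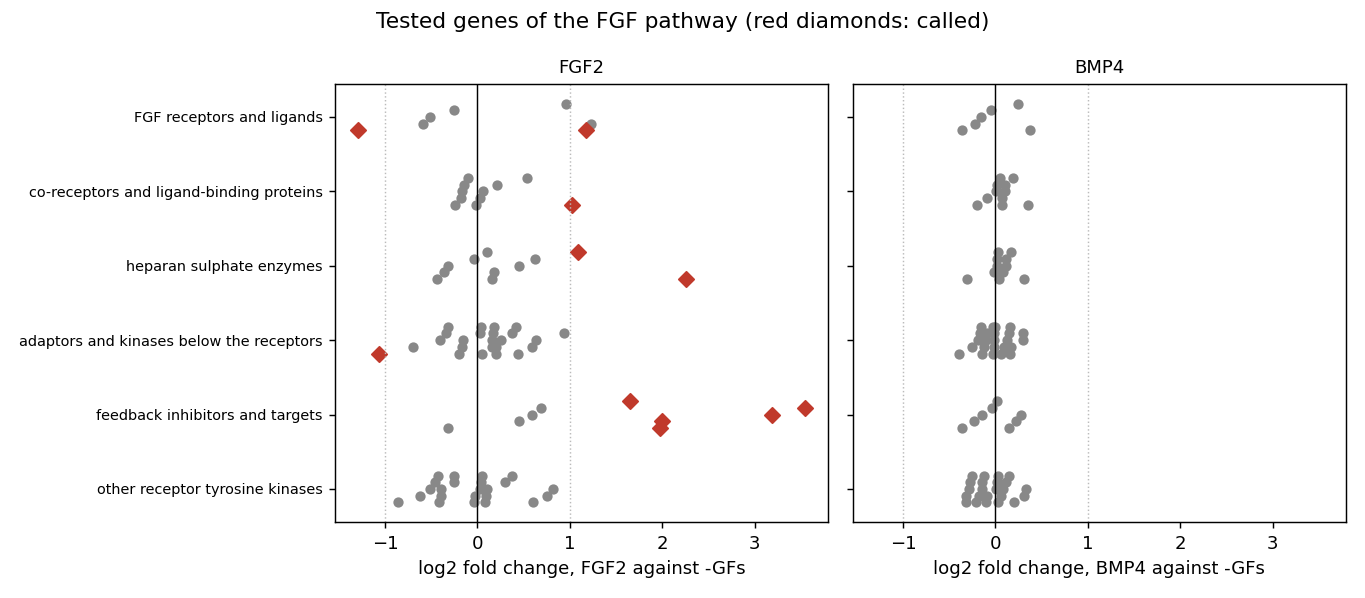
Log2 fold change with FGF2 (left) and BMP4 (right) against -GFs medium of each tested gene, by list (1 point a gene, shifted vertically for legibility; red diamonds called, dotted lines the threshold of 1; genes below background in both groups left out). With FGF2 the called genes are FGFR2 and GAB1 below 0, and FGF18, SDC1, NDST1, HS6ST1 and 5 feedback inhibitors and targets above 0, and with BMP4 there is none.

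For both called genes, the 3 tested genes with the most similar profile over the 6 arrays were listed. The profile of FGFR2 was nearest to PHACTR1 (Pearson r = 0.996, a regulator of actin), 2310039H08RIK (0.995) and TCEA2 (0.995), of which PHACTR1 was called lower with FGF2 (log2 fold change -1.11). That of FGF18 was nearest to 4732471D19RIK (0.997), the tetraspanin CD9 (0.997) and LBR (0.997), of which CD9 was called higher (log2 fold change 1.30). With 6 arrays in 3 groups such values are common, 169 genes reaching an r over 0.95 with FGFR2 and 238 with FGF18, and they are a description of shared group differences.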

How the data were processed

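RNA of pure PA6 cultures was measured on 6 arrays, and group and replicate were read from the labels. The values that the authors deposited are bead intensities on a linear scale, without normalization between arrays, exported with GenomeStudio 2011.01 per the labels. A detection p, treated as another kind of value, is deposited beside each intensity. Not used were 9 unheaded columns (values on 2045 lines) and 6 stray lines closing the table. Arrays were normalized in R 4.3.3 by a cubic spline over 452 quantiles, written after the methods, and taken to log2. The 16111 probes detected (p under 0.05) in both replicates of any group were kept, and the brightest probe on average stood for each of 11872 genes. limma 3.58.1 (lmFit, eBayes) was fitted on all 6 arrays with 3 residual degrees of freedom, with Benjamini-Hochberg adjustment over all genes. This main fit held the group only, so differences between replicate numbers stayed in its standard errors and intervals. The fit with a replicate block was an alternative. A probe below background on both arrays of a group has a bound there, the higher of its own value and the lowest detected signal on each array. The precision is limited by the number of arrays.

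Replicate numbers pair the arrays, since by the labels each replicate was a set of wells given the 3 media. Arrays of the same number deviated together across 11872 genes (r = 0.602 between -GFs and FGF2, 0.741 between -GFs and BMP4, 0.579 between FGF2 and BMP4). The members and the gene lists were chosen with earlier results of these data known. The text gives all 10 members with all probes, the called genes of the lists (up to 6 a list), and the 3 genes most similar to each called member. EPHB3, EPHB4, EPHB6, FLT1, FRS2 and TYRO3 were named after their values were seen. The procedure was run on simulated data with independent noise on each array, no replicate effect, and planted changes larger than those fitted for the called members. That run cannot show how the procedure does with paired arrays or with smaller changes. Alternatives were other normalizations, background correction, detection filters, probe choices, a replicate block, other model options, the t-test of the methods and leaving out each array.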

Additional observations from a re-analysis of the deposited data

How the results depend on the processing

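The direction of FGFR2, FGF18, FGF2, FGF7, FGFRL1 and FGF10 with FGF2 against -GFs medium was the same under each alternative that gave a value. FGFR2 ranged from -1.45 to -1.07. The count of members called, 2 for FGF2 against -GFs medium and 2 for FGF2 against BMP4, was 1 in each where detection on all 6 arrays was required (FGFR2, since FGF18 and FGF2 then drop out), 0 with the methods' t-test once adjusted by Benjamini-Hochberg, which called no gene at all, and 4 with neqc and the replicate block together, an alternative chosen after seeing the data. Leaving out an array gave 0 to 3 called members against -GFs medium and 1 to 3 against BMP4. Members past the adjusted p alone numbered 3, and 1 with detection on all 6 arrays, 6 with the replicate block, 0 with the adjusted t-test, 6 with neqc and the block, and 0 to 4 without an array. The replicate block raised both counts of called members to 3 by adding FGF7 and changed no other call of a member. With BMP4 the count was 0 under every alternative run. Over all genes, called numbers for FGF2 against -GFs medium were 432 up and 362 down with neqc, 623 and 520 with neqc and the block, 121 and 58 without FGF2 replicate 1, 70 and 33 without FGF2 replicate 2, and 0 with the adjusted t-test, beside 271 and 148.

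Values that changed sign did so only when an array was left out, and none of them was called. FGFR1 with FGF2 ranged over the arrays left out from -0.62 to 0.12 and with BMP4 from -0.52 to 0.21, turning positive without -GFs replicate 2, and FGF2 against BMP4 it ranged from -0.22 to 0.03, turning positive without FGF2 replicate 1. For BMP4 against -GFs medium, FGF7 ranged from -0.92 to 0.82 and turned positive without -GFs replicate 1 (0.82) or BMP4 replicate 2 (0.35). Under the same omissions FGF10 turned negative (-0.06 and -0.11, range -0.11 to 0.59), as did FGF2, which is below background there (-0.02 and -0.10, range -0.10 to 0.14). The cause was not tested. Of the pathway lists, the feedback inhibitors and targets had 3 called genes, in place of 5, with detection on all 6 arrays or without FGF2 replicate 2. EPHB3, EPHB6 and TYRO3 were called lower with neqc and the block. Leaving out an array leaves 1 array in its group, which is then assumed to vary like the other groups.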
